A study of Mus musculus with 6 samples.

Results

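The insulin-like growth factor (IGF) axis and the Igf2 mRNA-binding proteins were followed through 10 genes: Igf2, H19, Igf1r, Igf2r, Igfbp2, Igfbp3, Igfbp4, Igf2bp1, Igf2bp2 and Igf2bp3. They were chosen by name, and all 10 had a row among the 10989 genes with values. The values are RNA sequencing measurements from mouse embryonic stem cells labelled MPI-II, at passages 13 to 18. The cells were wild type for Ddx5 (WT, 2 replicates) or carried a CRISPR knockout of Ddx5 (KO, 4 lines), a gene for an RNA helicase that takes part in splicing, transcription and microRNA processing. Per the labels' protocols, both genotypes were grown on feeder cells in 15% fetal bovine serum with 1000 U/ml leukemia inhibitory factor, the MEK inhibitor PD0325901 at 1 μM and the GSK3 inhibitor CH99021 at 3 μM. Each KO line was grown from a single clone after transfection of a Cas9 nickase with a pair of guides against the second exon and selection with G418. The series' design text speaks of sequencing in triplicate, while the labels give 2 WT replicates and 4 KO lines, and they do not state whether the WT replicates were separate cultures. Therefore p-values measure only the spread between these 6 libraries, which may be partly technical.

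IGF2 is a secreted growth factor that signals through the IGF1 receptor, while the IGF2 receptor carries it to lysosomes for degradation and the IGF-binding proteins hold it outside the cell. Igf2 and H19 are neighbouring imprinted genes: Igf2 is normally read from the paternal copy and the non-coding RNA H19 from the maternal one, and they share enhancers across an insulator bound by CTCF. The Igf2bp genes encode cytoplasmic proteins that bind Igf2, H19, Myc, Actb and other transcripts and steer their stability, location and translation.

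Values are given in the deposited units, a normalized score whose library totals (14612799 to 14722877 units) carry no information on sequencing depth, so no counting interval is given. Levels are not compared between genes, because it is not given in the sources used here whether the score was divided by gene length. Ddx5 itself read 36433 and 36436 units in WT, with KO lines at 5659 to 12793. All 16 genes of a pluripotency list had values, and their mean log2 level lay between 8.52 and 8.80 in every library. A list of feeder fibroblast genes was lower in every KO line, and its values are given beside the results they move with. Genes of chromosome 6 stood higher in KO line 4 and those of chromosome 8 lower in WT replicate 1 and KO line 1.

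In the KO lines Igf2 and Igfbp3 were lower and Igfbp4 and Igfbp2 higher, while the receptors, H19 and the Igf2bp genes did not pass the test. Genes count as called where limma, fitted over all genes, gave a Benjamini-Hochberg adjusted p below 0.05. Of the 10 genes, 4 were called (40.0%), against 17.1% of all genes. Of these, 2 were higher in KO, against 9.75% of all genes, and 2 were lower, against 7.34%. The call of Igf2 is limited by the level that the deposited table asks for, as given with its values below. The log2 fold changes ran from -4.82 for Igf2 to 1.72 for Igfbp4. KO and WT levels did not overlap for 5 of the 10 genes, against 43.7% of all genes: 2 wholly above WT (24.1% of all genes) and 3 wholly below (19.6%).

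**Figure D1:**
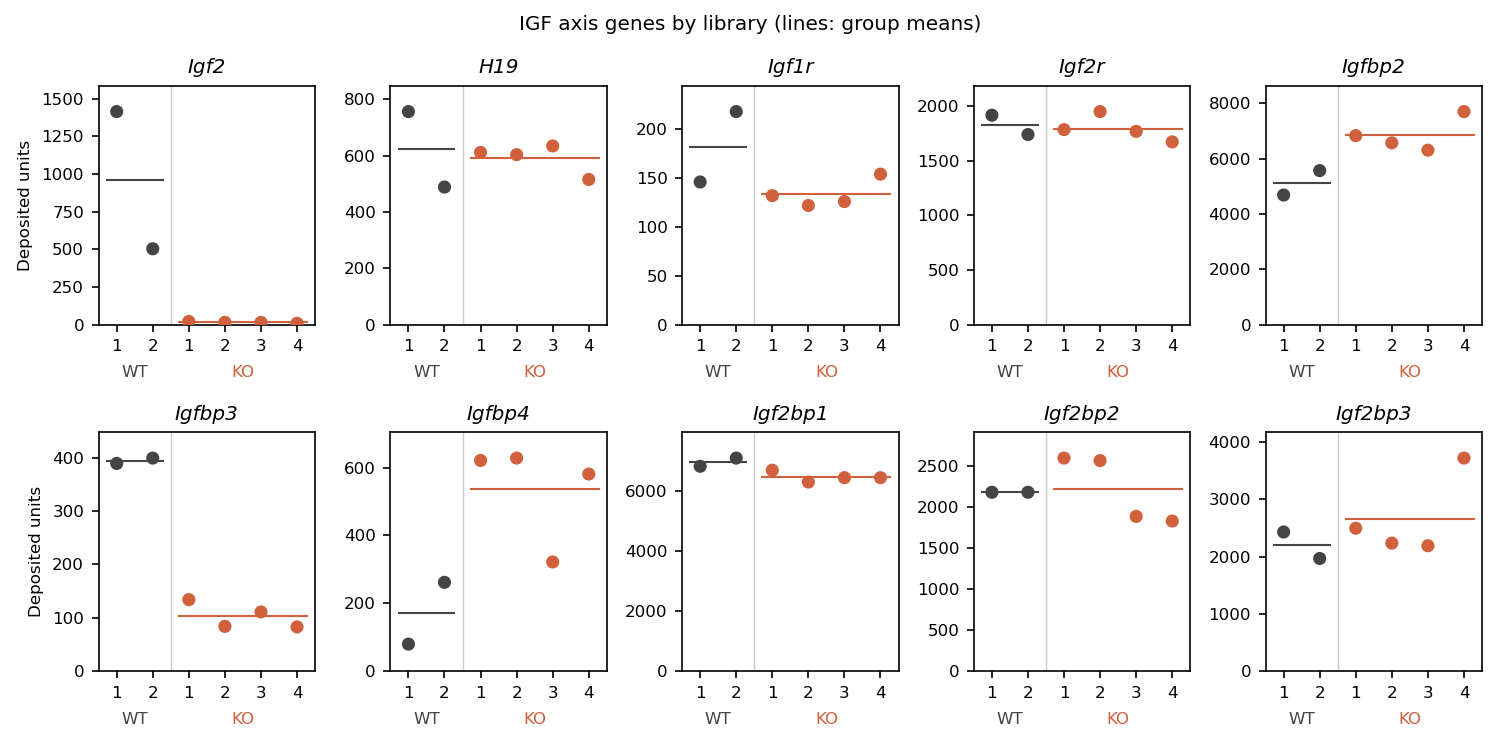
Deposited units of each of the 10 genes in the 2 WT and 4 KO libraries, with horizontal lines at the group means and a separate linear axis from 0 for each gene. Igf2 lies at 504 and 1414 units in WT and between 10 and 22 units in KO, while H19 overlaps between the groups.

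Igf2 (ENSMUSG00000048583, mm10 chromosome 7, 142650766 to 142666816, minus strand) stood at 1414 and 504 units in WT replicates 1 and 2. In KO lines 1 to 4 it stood at 22, 16, 16 and 10 units. Every KO line was far below both WT libraries, and the KO lines lay close together, whereas WT replicate 1 held 2.81 times the level of WT replicate 2. The mean went from 959 ± 643 (SD, n = 2) to 16 ± 4.90 units (SD, n = 4), 59.9-fold lower. The log2 fold change, on the scale of log2(scaled value + 1) that understates changes of low genes, was -4.82 (SE 0.423, 95% interval -5.82 to -3.82, adjusted p = 0.00271, limma). In 6 leave-one-out fits, each without 1 library, Igf2 stayed called with log2 changes between -5.55 and -4.09. The deposited table holds only genes that reach 80 units in at least 2 libraries. Igf2 met that level only through WT, like 150 genes in all that stayed under it in every KO line, so a gene at such KO levels could be in the table only if it was higher in WT. The mirror case, under 80 units in both WT libraries, held for 413 genes. Of the 10426 genes that reached 80 units in both groups, 15.4% were called. Of the 9 genes followed here that did so, 2 were called higher and 1 lower (33.3%).

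Fibroblast genes moved with Igf2. Of the 27 feeder fibroblast genes with a value, 25 were called lower in the KO lines (92.6%, against 7.34% of all genes). None was called higher, against 9.75% of all genes. The median log2 fold change was -3.07, against 0.043 for all genes tested. Of these 27, 7 stayed under 80 units in every KO line and so were in the table only through WT. Of the other 20, 18 were called lower (90.0%). Of all genes that reached 80 units in both groups, 15.4% were called in either direction. The median log2 fold change of the 20 was -2.72. The 2 genes not called were Fn1 (log2 0.14) and Pdgfrb (log2 -0.87). The list summed to 112525 and 71454 units in WT and to 43835 to 48142 units in KO. Fn1 alone held 36452 and 29855 of these units in WT and 36452 in every KO line. Most of each KO sum was therefore Fn1, and the sums understate the fall of the other genes as a set. The equal values of Fn1 lie on a shared upper step of the score, where a change of this gene may be hidden. Averaged over its genes on the log2 scale, the list stood at 6.96 and 6.10 in WT and at 3.21 to 3.89 in KO. Of its genes, 12 stayed above 100 units in every KO line, and Col6a3, a chain of type VI collagen, was listed at 0 in KO line 4. As for Igf2, WT replicate 1 was the higher of the 2 WT libraries. In bulk samples, fewer cells of a type and less RNA per cell cannot be told apart. The part of the fibroblast genes in the fall of Igf2 was not tested. Of other cell types, few genes had a value. Of 4 endoderm genes with a value, Sparc was called lower (log2 -0.79) and none higher (25.0%, against 17.1% of all genes). Like the fibroblast list, Sparc was highest in WT replicate 1 (8240 and 5562 units in WT, 3571 to 4236 in KO). The part of the fibroblast genes in its fall was not tested. Of 5 trophoblast genes, Ascl2 and Tfap2c were called higher and none lower (40.0%, against 17.1% of all genes). Ascl2 was listed only through its KO level. Of the 3 trophoblast genes that reached 80 units in both groups, 1 was called (33.3%, against 15.4% of such genes). The 1 mesoderm gene with a value, Eomes, is also 1 of the 5 trophoblast genes and was not called.

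**Figure D2:**
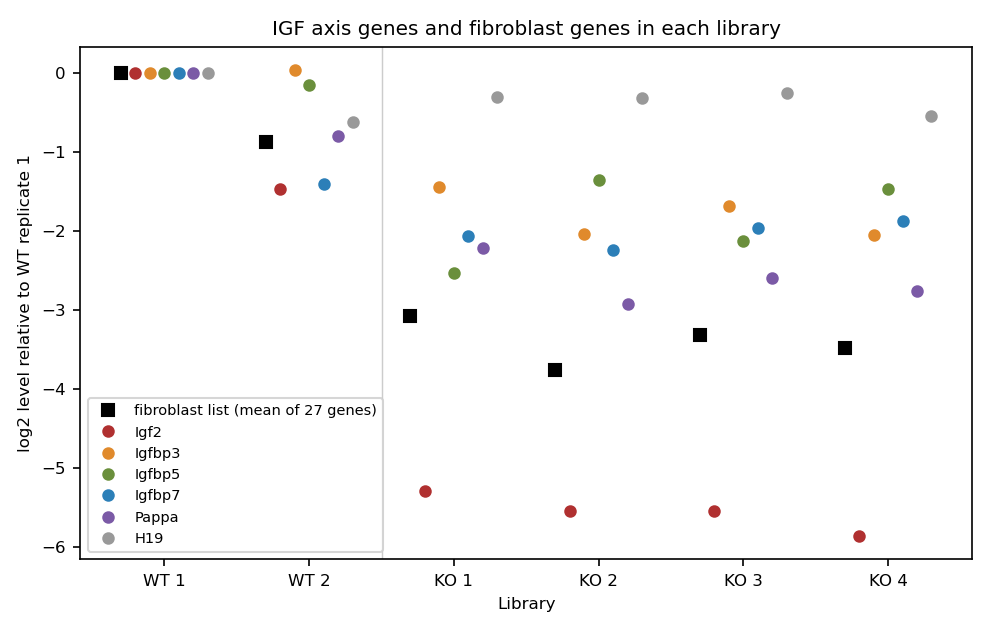
Log2 level relative to WT replicate 1 in each of the 6 libraries, for the mean of the 27 fibroblast genes (squares) and for 6 IGF axis genes (circles, one point per library, offset sideways for visibility). Igf2 lies lowest in every KO line, below the fibroblast mean, while H19 stays within 1 log2 unit of WT replicate 1.

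H19 (ENSMUSG00000000031, chromosome 7, 142575529 to 142578143, minus strand), whose start lies 88.7 kb from that of Igf2, did not follow it. H19 stood at 757 and 489 units in WT and at 612, 604, 635 and 516 units in KO lines 1 to 4. The KO lines all lay between the 2 WT libraries. The log2 fold change was -0.044 (SE 0.185, 95% interval -0.48 to 0.39, adjusted p = 0.885, limma), an interval that does not exclude a moderate change in either direction. Its sign depended on WT replicate 1 and on KO line 4: the change was 0.26 without the former and 0.019 without the latter. The log2 ratio of Igf2 to H19 within a library was 0.89 and 0.042 in WT and -4.09, -4.33, -4.40 and -4.43 in the KO lines. It differed by -4.78 between the groups (KO minus WT). The exact permutation test (two-sided) gave p = 0.0667, the smallest that 2 against 4 libraries allow (adjusted p = 0.2 over 3 ratios). At its KO levels Igf2 could be in the deposited table only if it was higher in WT, as given above. With H19 overlapping between the groups, the ratio was therefore bound to separate them. This p-value cannot decide whether the ratio changed.

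Both genes host microRNAs. Their mature sequences are shown because Ddx5 is known as a cofactor of the Drosha complex, which cuts microRNA hairpins out of such hosts; the mature microRNAs themselves were not analysed here. The hairpin of miR-675 lies within H19 and that of miR-483 within Igf2. The sequences are from RefSeq (build GRCm38.p6), written 5′ to 3′, with the seed (bases 2 to 8) in capitals.
mmu-miR-675-5p: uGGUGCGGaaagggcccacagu
mmu-miR-675-3p: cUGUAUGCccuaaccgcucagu
mmu-miR-483-5p: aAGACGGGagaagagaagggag
mmu-miR-483-3p: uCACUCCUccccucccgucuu
No seed is shared among these 4. The seed match of miR-675-3p, GCATACA, occurred in 2 places in the 3′ UTR of Igf1r and in no other coding gene of the 10, against 8.52% of 10522 measured coding genes with at least 1 match (longest coding transcript per gene, transcript strand). The match of miR-675-5p, CCGCACC, occurred in none of the 9 coding genes (2.18% of all). A match of letters is not evidence of a working site, and longer UTRs hold more of them; that of Igf1r had 7267 bases.

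Genes around the pair moved in different directions. Of 22 other genes of the region that were listed, 8 had a value and 14 had none. Of the 8, 2 were called higher and 1 lower (37.5%, against 17.1% of all genes). The call of Ascl2, 1 of these, is limited by the level asked for in the deposited table, as given below. Of the 7 that reached 80 units in both groups, 1 was called higher and 1 lower (28.6%, against 15.4% of such genes). Mrpl23, a mitochondrial ribosomal protein gene whose start lies 45.5 kb from that of H19, stood at 450 and 334 units in WT and at 966, 945, 957 and 840 units in KO, all above WT (log2 1.22, adjusted p = 0.00523, limma). Ascl2, a trophoblast transcription factor, had a log2 change of 2.14, from 35 and 1 to between 74 and 136 units. Ascl2 was under 80 units in both WT libraries and so in the table only through KO. It was no longer called in 5 of the 6 leave-one-out fits, all but that without WT replicate 1. Tssc4 fell by 0.87 on the log2 scale, from 835 and 950 units to between 429 and 509. The imprinted antisense RNA Kcnq1ot1 spread from 209 to 945 units between the WT libraries and was not called (log2 -0.26). The median over the 8 genes was 0.14.

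**Figure D3:**
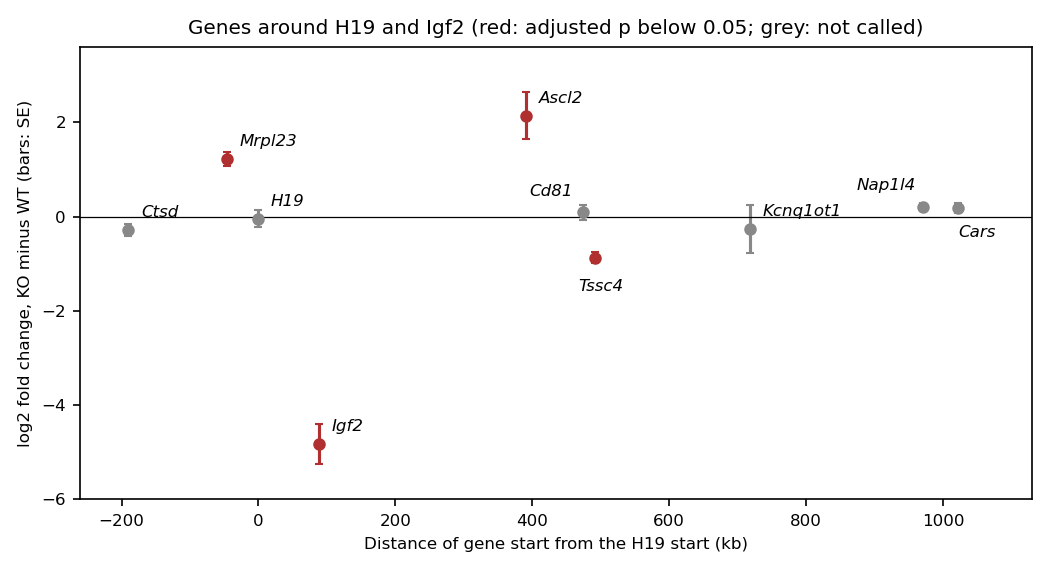
Log2 fold change (KO minus WT, bars show the SE) of the genes with a value around H19, plotted by the distance of their start from the H19 start in kb, with called genes in red. Igf2 lies at -4.82, while H19 at -0.044 and the other uncalled genes lie near 0.

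Factors known to act on the imprint of this region were mostly not called. Of 14 with a value, none was higher and 2 were lower (14.3%, against 17.1% of all genes; median log2 change 0.032). The 2 were Dnmt3l, a cofactor of de novo DNA methylation (1366 and 1422 units in WT, 583 to 982 in KO, log2 -0.84), and the cohesin subunit Smc1a (log2 -0.39). They were no longer called in 4 and 3 of the 6 leave-one-out fits. Ctcf, the insulator protein, stood at 2744 and 3068 units in WT and at 2724 to 3494 in KO and was not called (log2 0.14). Its gene lies on chromosome 8, whose genes stood lower in WT replicate 1 and KO line 1. The lowest values of Ctcf were in these libraries, 2744 and 2724 units.

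The receptors showed no change that passed the test. Igf1r, the receptor that transmits the IGF signal (ENSMUSG00000005533, chromosome 7, 67952827 to 68233668), stood at 146 and 218 units in WT and at 132, 122, 126 and 154 units in KO. KO line 4 was above WT replicate 1, so the groups overlapped. The log2 change was -0.39 (SE 0.211, 95% interval -0.89 to 0.11, adjusted p = 0.23, limma). Without WT replicate 1 it was -0.66 and was called (adjusted p = 0.0453), and without WT replicate 2 it was -0.12 (adjusted p = 0.692). Igf2r, the scavenging receptor (ENSMUSG00000023830, chromosome 17, 12682406 to 12769664), stood at 1918 and 1741 units in WT and at 1786, 1951, 1770 and 1674 units in KO, with the groups overlapping. Its log2 change of -0.028 had a 95% interval of -0.26 to 0.21. Igf2r overlaps the antisense RNA Airn and Igf2 overlaps the antisense RNA Igf2os. Whether counting used strand is not given in the sources used here, so reads of these pairs cannot be told apart. The log2 ratio of Igf1r to Igf2r differed by -0.36 between KO and WT (exact permutation test, two-sided, p = 0.2, adjusted p = 0.3).

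The binding proteins moved in opposite directions. Igfbp3, the main carrier of IGFs in blood (ENSMUSG00000020427, chromosome 11, 7206086 to 7213923, minus strand), stood at 389 and 399 units in WT and at 134, 84, 111 and 83 units in KO. The 2 WT libraries were nearly equal, unlike those of Igf2 and of the fibroblast list mean. Within that list, Fbln2 (3138 and 3344 units) and S100a4 (146 and 164 units) were also near equal in WT. The other genes of the list were higher in WT replicate 1. Igfbp3 was below both WT libraries in every KO line. It was 3.83-fold lower in KO (log2 -1.82, SE 0.221, adjusted p = 0.00595, limma), and it stayed called in all 6 leave-one-out fits (adjusted p up to 0.0268). The fibroblast list, given above, was lower in the same lines, and its part in the fall of Igfbp3 was not tested.

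Igfbp4 (ENSMUSG00000017493, chromosome 11, 99041244 to 99054392, plus strand), whose product mostly restrains IGF action until it is cleaved, stood at 80 and 262 units in WT and at 621, 628, 322 and 581 units in KO. All KO lines were above both WT libraries, but KO line 3 lay near WT replicate 2 and the WT libraries themselves differed widely. The mean was 3.15-fold higher in KO (log2 1.72, SE 0.451, adjusted p = 0.0427, limma). The call was kept without WT replicate 2 (adjusted p = 0.0186) and lost without any other library. Without WT replicate 1 the log2 change fell to 0.95 (adjusted p = 0.111).

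Igfbp2 (ENSMUSG00000039323, chromosome 1, 72824503 to 72852474, plus strand), another secreted IGF carrier, stood at 4689 and 5572 units in WT and at 6835, 6574, 6310 and 7705 units in KO. The KO lines were all above WT by a small margin, 1.34-fold on average (log2 0.42, SE 0.113, 95% interval 0.15 to 0.69, adjusted p = 0.0467, limma). This call, too, was kept without WT replicate 2 (adjusted p = 0.0404) and lost without any other library (adjusted p up to 0.114). It was also lost when each library was scaled by its median ratio (log2 0.38, adjusted p = 0.0697).

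Promoter windows are shown for the genes called here, since Igf2 and Igfbp3 were lower and Igfbp4 and Igfbp2 higher in the same KO lines. Of the 10 genes, 8 matched RefSeq promoter windows (build GRCm38.p6, 250 bases before to 50 after a start, written 5′ to 3′ on the strand of the gene). H19 and Igf2bp1 were the other two. Igf2 has 4 such windows and Igfbp2 has a pair; the one with the most CpG dinucleotides is printed. Capitals mark matches on either strand to 4 core or common motifs: TATAAA, bound by the basal factor TBP, GGGCGG, bound by Sp1, TGANTCA, bound by AP-1, and CACGTG, the E-box. None of these motifs contains another.
Igf2, chr7:142658755-142659054, minus strand: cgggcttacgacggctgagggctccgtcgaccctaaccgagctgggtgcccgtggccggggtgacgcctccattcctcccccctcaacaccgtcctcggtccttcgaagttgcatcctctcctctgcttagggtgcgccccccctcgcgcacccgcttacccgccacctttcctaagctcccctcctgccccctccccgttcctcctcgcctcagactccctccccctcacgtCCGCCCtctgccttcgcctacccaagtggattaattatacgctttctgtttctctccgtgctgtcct
Igfbp3, chr11:7213874-7214173, minus strand: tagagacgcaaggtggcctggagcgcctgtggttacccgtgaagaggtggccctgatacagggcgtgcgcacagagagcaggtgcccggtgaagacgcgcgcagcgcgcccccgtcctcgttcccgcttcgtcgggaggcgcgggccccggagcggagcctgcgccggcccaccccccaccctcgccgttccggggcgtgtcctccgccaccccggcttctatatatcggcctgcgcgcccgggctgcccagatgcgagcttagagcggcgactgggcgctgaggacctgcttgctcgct
Igfbp4, chr11:99040994-99041293, plus strand: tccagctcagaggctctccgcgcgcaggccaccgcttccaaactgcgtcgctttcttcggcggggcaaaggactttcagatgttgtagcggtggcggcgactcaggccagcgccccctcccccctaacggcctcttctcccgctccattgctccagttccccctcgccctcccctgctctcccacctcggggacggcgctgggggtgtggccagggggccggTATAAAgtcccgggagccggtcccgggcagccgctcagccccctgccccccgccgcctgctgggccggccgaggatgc
Igfbp2, chr1:72824230-72824529, plus strand: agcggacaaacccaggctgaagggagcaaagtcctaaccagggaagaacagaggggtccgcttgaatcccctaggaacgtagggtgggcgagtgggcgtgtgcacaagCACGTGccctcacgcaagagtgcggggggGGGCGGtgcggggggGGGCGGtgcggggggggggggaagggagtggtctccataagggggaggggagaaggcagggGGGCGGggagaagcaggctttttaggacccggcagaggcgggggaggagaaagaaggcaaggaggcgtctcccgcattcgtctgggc
Over all 32851 windows, 13.6% held TATAAA, 35.7% GGGCGG, 7.81% TGANTCA and 7.15% CACGTG. The windows printed held 24 CpG in Igf2, 37 in Igfbp3, 27 in Igfbp4 and 18 in Igfbp2, and the median over all windows was 7. The other Igf2 windows held 2, 14 and 7, and the other Igfbp2 window held 14. The Igf2 window printed held 1 match, to GGGCGG, and that of Igfbp4 held 1, to TATAAA. The Igfbp2 window printed held 3 to GGGCGG and 1 to CACGTG, while none was found in the Igfbp3 window. Of the windows not printed, the Igf2 window with 7 CpG held 2 matches to GGGCGG. The other Igfbp2 window held 1 to TGANTCA, and the remaining Igf2 windows held none. A match is a description of letters and not of binding.

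Beyond these genes, a list of IGF and insulin ligands, receptors, binding proteins and their modifiers was read from the same fit. Of its 22 genes, 12 had a value and 10 were not analysed here, among them Igf1, Igfbp1 and Igfbp6. Of the 12, 3 were called higher and 5 lower (66.7%, against 17.1% of all genes), with a median log2 change of -0.44. Of these 8 calls, 4 were of genes that reached 80 units in 1 group only: Igf2, Igfbp5 and Pappa in WT and Stc2 in KO. Of the 8 genes that reached it in both groups, 2 were called higher and 2 lower (50.0%, against 15.4% of all such genes). This list holds 6 of the genes described above (Igf2, Igf1r, Igf2r, Igfbp2, Igfbp3 and Igfbp4). With 1 library left out it had 1 higher gene in 5 of the 6 fits and 3 higher genes without WT replicate 2, and 3 or 4 lower genes.

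Igfbp5, which lies 5.46 kb from Igfbp2 on chromosome 1, went the other way from its neighbour. It stood at 202 and 180 units in WT and at 23, 70, 35 and 64 units in KO (log2 -1.79, SE 0.386, adjusted p = 0.0249, limma). The KO lines were all lower but spread 3.04-fold among themselves, and Igfbp5 was no longer called in 4 of the 6 leave-one-out fits. Igfbp7, a binding protein of low affinity for IGFs, stood at 580 and 210 units in WT and at 128, 111, 138 and 148 units in KO (log2 -1.33, adjusted p = 0.0478). It stayed called only without WT replicate 2 (adjusted p up to 0.12 in the other fits). For Igfbp7, as for Igf2 and the fibroblast list, WT replicate 1 was the higher WT library.

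The protease that releases IGFs from IGFBP4 and its inhibitor also moved. Pappa, which encodes that protease, stood at 248 and 136 units in WT and at 42, 20, 29 and 24 units in KO, all below WT (log2 -2.22, SE 0.364, adjusted p = 0.012, limma). Stc2, which encodes stanniocalcin 2, an inhibitor of the protease, stood at 68 and 52 units in WT and at 394, 480, 302 and 455 units in KO, all above WT. It was 6.80-fold higher (log2 2.49, SE 0.218, adjusted p = 0.00271). Pappa and Stc2 stayed called in all 6 leave-one-out fits. Pappa and Igfbp5, like Igf2, reached the 80 units of the deposited table only in WT, and Stc2 only in KO, so each had to differ in its direction to be listed. The fibroblast list fell in the lines where Pappa, Igfbp5 and Igfbp7 fell, and its part in these falls was not tested. The insulin receptor gene Insr stood at 104 and 100 units in WT and at 134 to 253 in KO without passing (log2 0.68, adjusted p = 0.12), and it lies on chromosome 8. The protease gene Htra1 overlapped between the groups (log2 -0.49, adjusted p = 0.427).

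**Figure D4:**
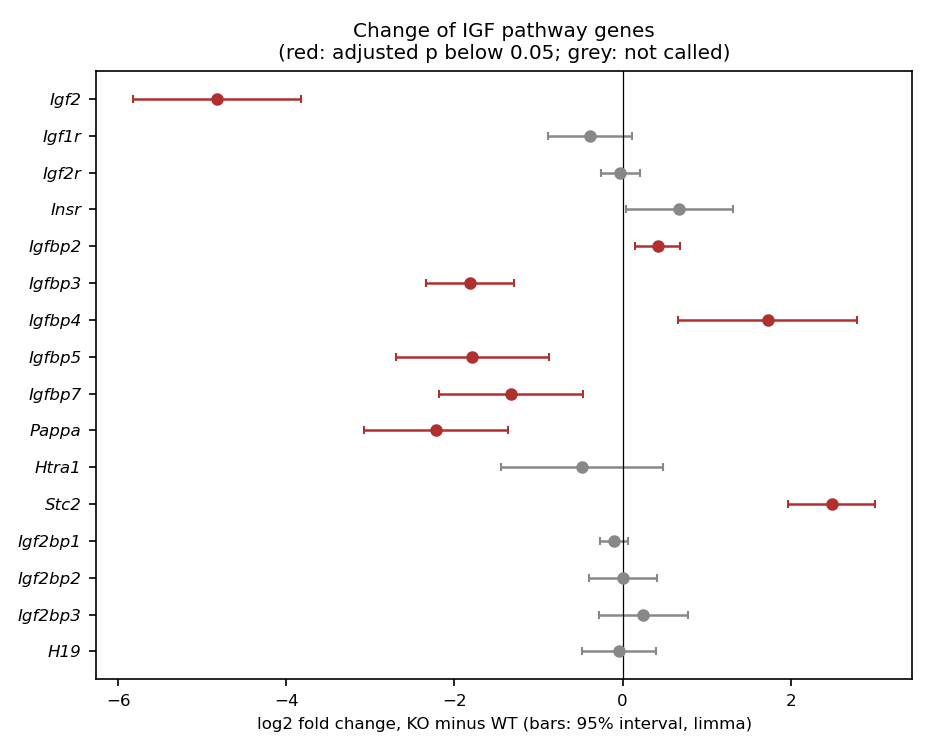
Log2 fold change (KO minus WT) of the ligand, receptors, binding proteins and their modifiers, the Igf2bp genes and H19, with 95% intervals from limma and called genes in red. Igf2 lies at -4.82 and Stc2 at 2.49, while the 3 Igf2bp genes, H19, Igf1r and Igf2r have intervals that include 0.

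The Igf2 mRNA-binding protein genes did not pass the test in any direction. Igf2bp1 (ENSMUSG00000013415, chromosome 11, 95957163 to 96005940) stood at 6835 and 7108 units in WT and at 6704, 6310, 6455 and 6455 units in KO. The KO lines were all just below WT, yet the log2 change was only -0.11 (SE 0.0716, 95% interval -0.27 to 0.06, adjusted p = 0.331, limma). The KO lines varied by 2.52% (SD as a share of the mean), the lowest such spread of the 10 genes.

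Igf2bp2 (ENSMUSG00000033581, chromosome 16, 22059009 to 22163299) read 2178 units in each WT library, while KO lines 1 to 4 read 2594, 2563, 1884 and 1828 units. KO lines 1 and 2 were above WT and KO lines 3 and 4 below it, so the mean change was close to 0 (log2 0.0064, 95% interval -0.40 to 0.41, adjusted p = 0.984).

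Igf2bp3 (ENSMUSG00000029814, chromosome 6, 49085223 to 49214957) stood at 2430 and 1968 units in WT and at 2496, 2236, 2190 and 3720 units in KO. KO line 4 was the highest library and the other KO lines lay among or just above WT (log2 0.25, 95% interval -0.28 to 0.78, adjusted p = 0.466). In KO line 4, Igf2bp3 stood 0.69 above the mean of the other KO lines on the log2 scale, and the median of 518 genes of chromosome 6 stood 0.45 above it. With the medians of each chromosome subtracted, the KO change of Igf2bp3 was 0.075. Without KO line 4 and with no such subtraction it was 0.074. Igf2bp3 overlaps Malsu1 on the opposite strand, which stood at 560 and 214 units in WT and at 365 to 516 in KO. The log2 ratio of Igf2bp2 to the mean of Igf2bp1 and Igf2bp3 differed by -0.064 between KO and WT (exact permutation test, two-sided, p = 0.933, adjusted p = 0.933).

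The 3 genes are known targets of let-7, a microRNA that keeps growth genes of the embryo low in later stages, and their 3′ UTRs hold its seed match. The sequences show let-7a (RefSeq, seed in capitals) and, for each gene, the first place in its 3′ UTR where the seed match CTACCTC is followed by an A, with these letters in capitals (GENCODE M21 transcripts, DNA letters, 5′ to 3′).
mmu-let-7a-5p: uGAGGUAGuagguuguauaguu
Igf2bp1: ctgtgcgaagtaaaCTACCTCAaggtgt
Igf2bp2: cacacaaataaaagCTACCTCAggtgtt
Igf2bp3: gcatttttactcaaCTACCTCAggtatt
Igf2bp1 held 4 seed matches in 6337 bases of 3′ UTR, Igf2bp2 held 1 in 1784 bases and Igf2bp3 held 1 in 2119 bases, against 10.7% of the 10522 measured coding genes with at least 1. Igf1r held 2 and Igf2r 1, while Igf2, Igfbp2, Igfbp3 and Igfbp4 held none of these matches. The Igf2bp genes were searched as known targets, and longer UTRs hold more matches, so the share over all genes is no test. As for miR-675, a match of letters is not evidence of a working site.

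Of 15 genes of a let-7 and Lin28 list with a value, 2 were called higher and 2 lower (26.7%, against 17.1% of all genes; median log2 change 0.12). Lin28a, whose protein blocks the maturation of let-7, stood at 2291 and 1980 units in WT and at 727, 548, 582 and 939 units in KO. Every KO line was below WT (log2 -1.62, SE 0.219, adjusted p = 0.00753, limma), and it stayed called in all 6 leave-one-out fits. Its paralog Lin28b overlapped between the groups (log2 -0.058). Zcchc11, a uridylyltransferase that marks let-7 precursors for decay, rose by 0.49 and the transcription factor Arid3a by 0.53, while Nras fell by 0.48. Zcchc11, Arid3a and Nras were no longer called in 2, 5 and 4 of these fits. The list had 4 higher genes without WT replicate 1, 0 or 1 without any other library, and 1 or 2 lower ones. Hmga2, a let-7 target, spread from 276 to 948 units among the KO lines and was not called (log2 -0.086).

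Among 9 transcripts known to be bound by Igf2bp proteins, 3 were lower and none higher (33.3%, against 17.1% of all genes; median log2 change -0.10). They were Igf2, the adhesion receptor Cd44 (1042 and 466 units in WT, 42 to 76 in KO, log2 -3.21) and Myc (240 and 676 units in WT, 72 to 172 in KO, log2 -1.86). Igf2 and Cd44 reached 80 units only in WT. Of the other 7 transcripts 1 was called (14.3%, against 15.4% of all genes that reached 80 units in both groups). Cd44 stayed called in all 6 leave-one-out fits, and Myc only without WT replicate 1. Cd44, like Igf2, was highest in WT replicate 1 and is also expressed by fibroblasts, and the part of the fibroblast list in its fall was not tested. Actb was not called (log2 -0.10), with levels of 20699 to 24993 units.

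Signalling genes downstream of the receptors were called about as often as genes in general. Of 30 with a value, 2 were higher and 3 lower (16.7%, against 17.1% of all genes; median log2 change -0.012). Foxo3, a transcription factor that AKT keeps out of the nucleus, stood at 1208 and 817 units in WT and at 2291, 2040, 2143 and 1944 units in KO, all above WT (log2 1.07, SE 0.161, adjusted p = 0.00944, limma). Rictor, a subunit of mTOR complex 2, which phosphorylates AKT, stood at 1304 and 1548 units in WT and at 752, 716, 691 and 762 units in KO, all below WT (log2 -0.95, SE 0.109, adjusted p = 0.00521). Foxo3 and Rictor stayed called in all 6 leave-one-out fits. Foxo1 rose by 0.60, while the phosphatase gene Ptpn11 fell by 0.48 and the adaptor gene Irs2, on chromosome 8, by 0.79. These were no longer called in 5, 4 and 6 of the 6 fits. Without WT replicate 1, 5 genes of the list were higher and 4 lower, and without KO line 2 or KO line 3, 1 was higher and 1 lower. Akt1, Mtor and Pdpk1 were not called, with log2 changes of -0.18, -0.024 and -0.021.

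The genes whose log2 levels were most like those of a given gene over the 6 libraries were found by Pearson correlation across libraries. This is a description only, because the libraries fall into the 2 groups and, with 6 points and all genes to choose from, high values are easily reached. For Igf2 they were the matrix enzyme gene Loxl1, the collagen gene Col5a1 and Esf1 (each r = 0.998, n = 6). For Igfbp3 they were the matrix genes Fbln2 (0.998) and Aebp1 (0.996) and the nucleoporin gene Nup98 (0.997). Loxl1, Col5a1 and Fbln2 belong to the fibroblast list. For H19 they were Adcy2, Zmpste24 and Bcl2l1 (0.991 to 0.996), none of them called. For Igfbp2 they were Wasf3, Cep78 and Lonrf2 (0.991 to 0.997), for Igfbp4 Abi2, 1700020I14Rik and Stt3b (0.980 to 0.989), and for Igf2bp1 Zfp850, Pomp and Gm29562 (0.990 to 0.992).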

How the data were processed

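RNA was extracted with TRIzol and sequenced on 6 libraries. The authors deposited a table of 10989 genes by 6 libraries and named its unit CPM. The values are whole numbers with near-equal totals far over 1000000 and shared upper steps, so they were treated as a deposited normalized score, and the depth of each library is unknown. The tools listed in the submitters' processing notes were Bowtie2 2.2.0 and RSEM 1.2.17, with the build mm10; annotation and normalization: not given in the sources used here. Values were divided by 14.7 units (the mean library total over 1000000), 1 was added and log2 taken. A minimum scaled value of 1 in 2 or more libraries was asked of each gene and was met by all. The fit of KO against WT used limma 3.58.1 in R 4.3.3 (eBayes, trended prior variance) without covariates. Symbols and positions came from the table and GENCODE M21 (10941 genes matched). No count test was run. The fit was tested on simulated data. Of each list, genes called in the fit could be named, at most 6 of the largest change; uncalled genes are named for contrast, chosen with their values known. The members, lists and tests were chosen with earlier results of these data known. Alternatives were 0.5 and 5 as pseudocount, no filter or a scaled value of 10, quantile or median ratio scaling, no trend, array weights, chromosome medians subtracted, a replicate block, and each library left out.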

Additional observations from a re-analysis of the deposited data

Results flagged for a closer look

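In the 4 KO lines, the lowest level of Igfbp4, 322 units in KO line 3, lay far from the other three (581 to 628 units), with a gap to its nearest neighbour of 0.846 of the whole range, which is above Dixon's 95% critical value for 4 samples. Chance gives such a flag in about 1 in 20 groups, and 13 groups of values were examined.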

How the results depend on the processing

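Over the 10 genes and 16 alternatives, 130 of 160 fitted changes kept their direction and their side of the threshold, 20 lost a call, 1 gained one and 9 changed sign. Genes called numbered 382 with array weights (206 higher, 176 lower), and with 1 library left out they ranged from 472 without KO line 2 to 3304 without WT replicate 1 (237 to 2004 higher, 235 to 1300 lower). Leaving out KO line 3 gave 572 calls and leaving out KO line 1 gave 1223. The labels number WT replicates 1 and 2 and KO lines 1 to 4. Deviations from the group means correlated across genes at r = 0.145 for number 1 and 0.097 for number 2, too few pairs to show a pairing. WT replicate 2 and KO line 3, whose numbers differ, gave 0.096. The deviations of the 2 WT libraries mirror each other, so these values are not independent. A fit blocked on replicate number called 20 genes (2 higher, 18 lower) and none of the 10. Under this replicate block the log2 changes were -4.68 for Igf2 (adjusted p = 0.0565), -1.75 for Igfbp3 (0.0931), 1.98 for Igfbp4 (0.113), 0.39 for Igfbp2 (0.189) and 0.030 for Igf2r, and the log2 ratio of Igf2bp2 to the other Igf2bp genes was 0.24. Igfbp2 also lost its call with array weights (0.36), median ratio scaling (0.38), no trend (0.42) and chromosome medians subtracted (0.38), and Igfbp4 with no trend (1.72) and array weights (1.64). Igf2r changed sign with array weights (0.011) and Igf2bp2 with median ratio scaling (-0.032). With 1 library left out, the changes ranged from 0.29 to 0.54 for Igfbp2, 0.95 to 2.50 for Igfbp4, -0.66 to -0.12 for Igf1r, -0.35 to 0.26 for H19, -0.10 to 0.042 for Igf2r and -0.075 to 0.092 for Igf2bp2, and from -0.18 to 0.11 for the Igf2bp ratio. With 1 WT library, its spread is assumed to be that of the KO lines. The cause of these changes was not tested. Depth is unknown, so no counting limit is given.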

Other observations

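Among the 16 pluripotency genes, 1 was called higher and 1 lower in the KO lines (12.5%, against 17.1% of all genes). Nanog, a core factor of the pluripotent state, stood at 13562 and 12197 units in WT and at 20699 to 29828 units in KO (log2 0.89, SE 0.159, adjusted p = 0.0154, limma). It was no longer called without WT replicate 2 or without KO line 3, and it lies on chromosome 6, whose genes stood higher in KO line 4. Klf4, a factor of the naive pluripotent state, read 5926 and 4828 units in WT and 2344 to 3286 units in KO, all below WT (log2 -0.94, SE 0.152, adjusted p = 0.0116). Klf4 stayed called without any single library.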
